A study of Homo sapiens with 18 samples.

Results

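Translational efficiency, the level of ribosome footprints of a gene relative to the level of its mRNA, was compared between ICM-treated and young IMR90 fibroblasts. The members were 12 of the 18 libraries of the series, namely a Ribo-seq and an mRNA-seq library from each of 3 young and 3 ICM lysates. Ribo-seq counts reads of mRNA fragments that a ribosome shields from nuclease, here those in the coding sequence (CDS), and mRNA-seq counts reads of the whole transcript. Replication-dependent histone mRNAs mostly lack the poly(A) tail used to select mRNA. For this reason 74 of 38716 gene symbols, those beginning with HIST, were left out of the results below. They stayed in the fit, in its scaling and in the adjustment of p-values. The results concern the other 38642 symbols. Of these, 2996 had enough reads in both assays to be tested, so that every statement below concerns the better-expressed genes.

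IMR90 is an established line of fetal human lung fibroblasts with a limited number of divisions. Young cells were proliferating cells at low passage, and ICM cells had the same low passage but received inflachromene (ICM), a small-molecule ligand of HMGB1 and HMGB2, which are proteins of chromatin. The labels of these libraries gave neither a dose nor a time and named no vehicle for the young cells. According to the study's methods, cells were lysed with cycloheximide, which holds ribosomes in place, each lysate was divided between the assays, and mRNA-seq used poly(A)-selected RNA. All 3 lysates of a group came from 1 cell line, so that p-values measure the spread between lysates of that line.

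A change in the ratio of footprints to mRNA shows how ribosome occupancy of a transcript changed relative to the other genes measured. Each assay was scaled on its own, so the ratio cannot show a change in translation shared by all genes. The ratio was not divided by CDS length, so it does not compare occupancy between genes. It moves when initiation or elongation changes, or when footprints and mRNA do not change in step. mRNAs of ribosomal proteins and elongation factors carry a 5′ terminal oligopyrimidine (TOP) motif, a C followed by a run of pyrimidines at the very start of the transcript, through which mTORC1 and the cap-binding protein LARP1 set their translation in response to growth signals. Other classes have their own switch, such as the iron-responsive element of ferritin mRNAs and the upstream reading frames of stress-response mRNAs. Where mRNA falls and footprints do not, the change is called buffering.

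Ribo-seq depth was uneven, with 54421, 685061 and 1718521 CDS reads in young replicates 1 to 3 and 225041, 78980 and 46239 in ICM replicates 1 to 3, against 7902427 to 12848866 reads per mRNA-seq library. Young replicate 1 also differed in make-up, with 52.5% of its Ribo-seq reads on non-coding RNA and 34.4% in CDS, against 4.75% to 11.8% and 78.6% to 88.8% in the other 5 Ribo-seq libraries. Of its reads on mRNA regions, 10.2% lay in the 5′ UTR, against 2.43% to 5.36%. Spearman's rho between Ribo-seq replicates was 0.642 to 0.969, and between mRNA-seq replicates 0.990 to 0.998. All 11 fibroblast markers had reads in both assays, and the Ribo-seq levels of the epithelial, endothelial, immune and erythroid marker lists summed to at most 292 CPM (reads scaled to a library total of 1000000) in any lysate, with KRT14, CDH5, PTPRC and HBA1 at 0.

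A pair of Ribo-seq libraries stood out most, because they held footprints of genes that were scarce in the mRNA-seq of the same lysate. For 10 genes that were at least 50 times higher in ICM than in young mRNA-seq, among them AKR1B10, MMP3 and SPP1, the summed Ribo-seq level was 639 CPM in young replicate 1 against 72.2 and 66.4 CPM in young replicates 2 and 3. For 24 genes that were at least 50 times higher in young mRNA-seq, most of them mitotic, it was 913 CPM in ICM replicate 3 against 58.3 and 215 CPM in ICM replicates 1 and 2. For called genes whose mRNA changed by more than 2 on the log2 scale, the change in translational efficiency is therefore also given without young replicate 1 and ICM replicate 3. ICM replicate 2 stays in that fit, although its 215 CPM of footprints stood against 12.3 CPM in its mRNA-seq. That fit is therefore not free of such footprints.

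**Figure D1:**
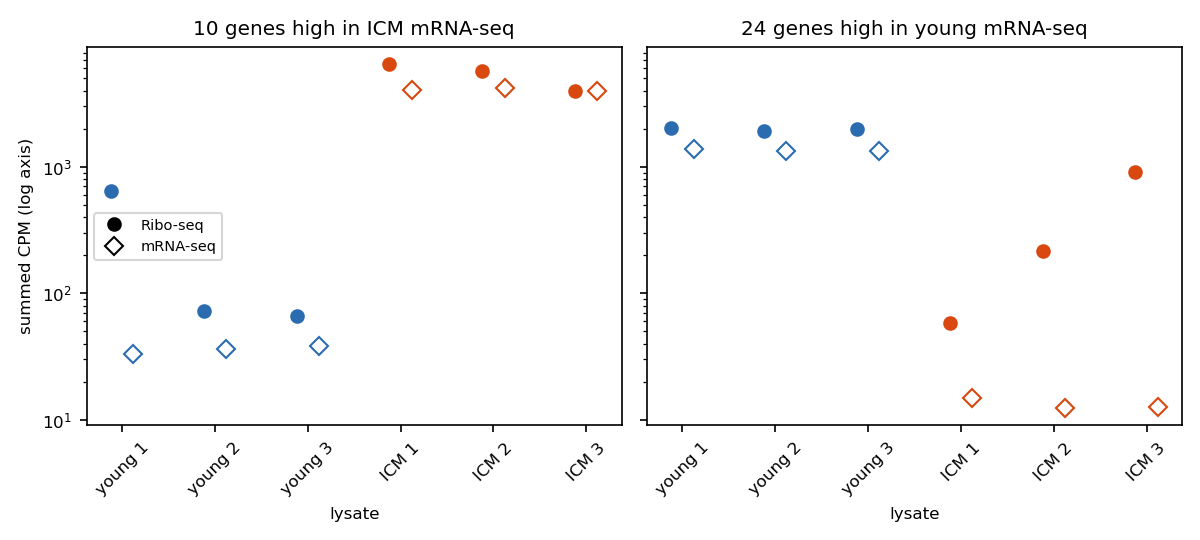
Summed level (CPM, log axis) of genes at least 50 times higher in the mRNA-seq of one condition, in each lysate, with Ribo-seq as filled circles and mRNA-seq as open diamonds. Young replicate 1 held 639 CPM of footprints of the ICM genes, and ICM replicate 3 held 913 CPM of footprints of the young genes.

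Translational efficiency differed for 30 of the 2996 genes, of which 23 rose and 7 fell in ICM (edgeR quasi-likelihood interaction test, adjusted p under 0.05). The balance depended on the filter for low counts, since with no filter 18 genes rose and 22 fell of 12912 tested. Over all 3012 genes tested, which include 16 HIST symbols that were all called down, the share called was 1.53%, or 0.764% in each direction. Among the 2996 genes without HIST symbols it was 0.768% up and 0.234% down. With HIST symbols left out before the fit, 22 genes were called, 16 up and 6 down. RPS14, RPS7, RPS4X, FN1, EHD2, SLC7A5, SLC25A6 and TXN were then not called. Without adjustment, 378 genes had a p under 0.05, 247 of them up and 131 down. The median log2 change was 0.06, and 90% of the genes lay between -0.81 and 0.85, with a median SE of 0.37. With each assay scaled on its own, this median does not measure a change in translation shared by all genes. In the same cells, footprints were called for 26.8% (12.8% up and 14.0% down) and mRNA for 73.6% (36.7% up and 36.9% down) of the genes tested in each assay.

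The rises held 6 ribosomal proteins, the elongation factors EEF2, EEF1G and EEF1A1 and the ribosome-associated scaffold RACK1, smooth-muscle-type actins with TAGLN, matrix genes, and the amino acid transporters SLC7A5 and SLC1A5. Among the falls were TMSB10, TXN, SERF2, GNG12, RTRAF and FIP1L1. For each of the 30 genes, the ratios of the 3 ICM lysates lay wholly above or wholly below those of the 3 young lysates, against 9.76% of all genes tested above and 8.43% below. The 30 genes were picked by a test on these same libraries, so the separation follows largely from the picking and adds no support. Of the 30, 8 were called in each of 19 alternative fits, namely ACTG2, CLDN11, EEF2, EEF1G, COL6A3, RACK1, EEF1A1 and TMSB10, and RPS7 was called in the fewest, 7. The other calls were lost in at least 1 alternative fit. Of the 30 calls, 23 were kept without young replicate 1, 9 of the 28 still tested without young replicate 2, 10 of the 28 without young replicate 3, 18 of the 29 without ICM replicate 1, 16 without ICM replicate 2 and 26 without ICM replicate 3, and none of those tested changed sign.

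**Figure D2:**
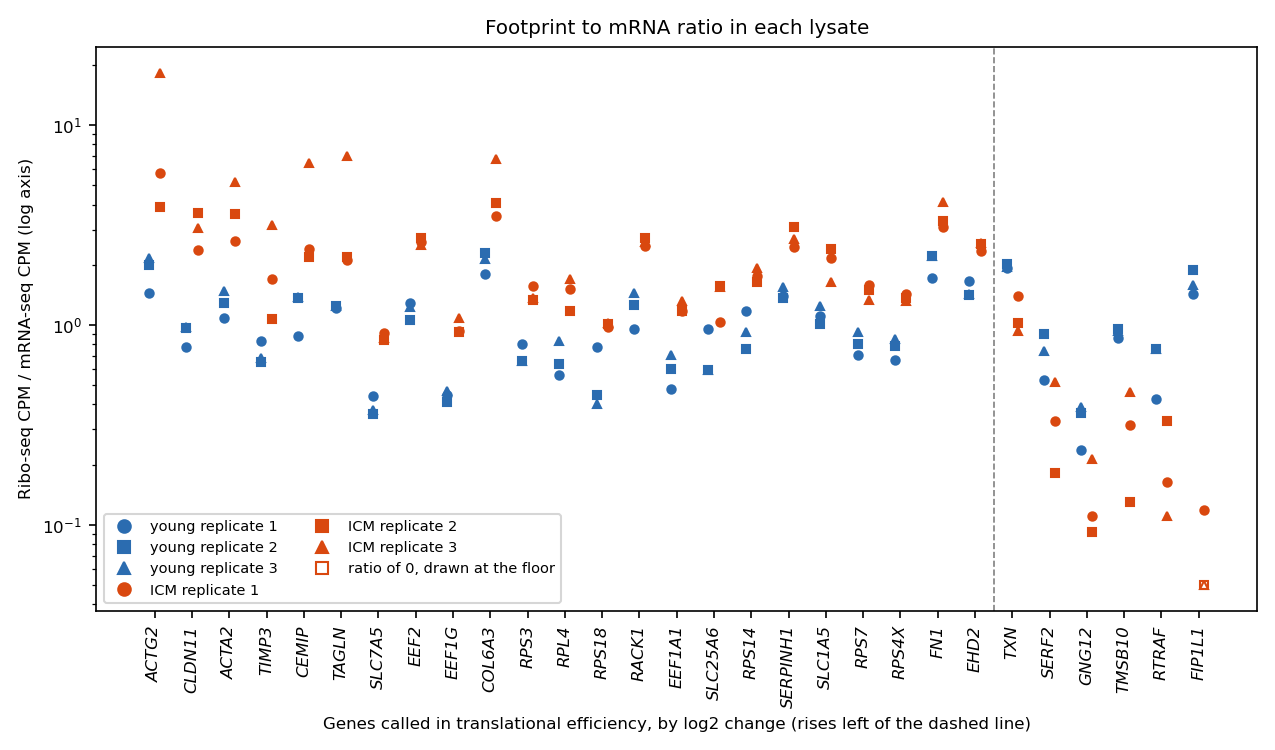
Ratio of Ribo-seq CPM to mRNA-seq CPM (log axis) in each lysate for 29 of the 30 genes called, ordered by their log2 change. Blue symbols are young and orange symbols ICM, and the groups do not overlap for any gene shown. Among the rises, ICM replicate 3 is the highest orange point for ACTG2, CEMIP, TAGLN, ACTA2, TIMP3, COL6A3 and FN1. It is also the highest for RPL4, EEF1A1, EEF1G, RPS14, RPS18 and EHD2.

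Annotated transcript starts are given for genes of the translation machinery that rose. Starts of CLDN11 and TMSB10, which were called without belonging to it, are given too. They show which of these genes have a TOP motif at the annotated base 1. The first 25 transcribed bases in RefSeq (GRCh38.p14) are given with the pyrimidine run of a TOP start in capitals, where a TOP start was taken as a C at base 1 followed by at least 4 C or T.
EEF2, chr19:3985439-3985463, minus strand: CTCTTCCgccgtcgtcgccgccatc
EEF1A1, chr6:73521008-73521032, minus strand: CTTTTTCgcaacgggtttgccgcca
RACK1, chr5:181243882-181243906, minus strand: CTCTCTTTCactgcaaggcggcggc
RPS3, chr11:75399518-75399542, plus strand: CCTTTCCTTTCagcggagcgcggcg
RPS18, chr6:33272075-33272099, plus strand: CTCTCTTCCacaggaggcctacacg
RPS14, chr5:150449715-150449739, minus strand: CTCTCTTTCCggtgtggagtctgga
RPL4, chr15:66504831-66504855, minus strand: aagcacttccttttcctgtggcagc
EEF1G, chr11:62573867-62573891, minus strand: actttgcggcagcgccgagaacccc
RPS7, chr2:3575260-3575284, plus strand: ctcgcgctgtttccgcctcttgcct
RPS4X, chrX:72277224-72277248, minus strand: aatttctacgcgcaccggaagacgg
CLDN11, chr3:170418868-170418892, plus strand: agcgctgctgtccccgccgtgcgcc
TMSB10, chr2:84905656-84905680, plus strand: gtttcttgctgcagcaacgcgagtg
Of the 10 genes of the translation machinery, 6 had a TOP start at the annotated base 1, and RPL4, EEF1G, RPS7 and RPS4X did not. The annotated base 1 need not be the start used in these cells. A gene without a TOP start by this rule may still carry the motif. Of 27305 RefSeq genes with a start, 4.04% had a TOP start on the transcribed strand. It was found in 8.06% of the 2444 tested genes with a start, in 67.2% of ribosomal protein genes, in 8 of 22 genes that rose and in 1 of 6 that fell, RTRAF. ACTA2 and SLC25A6 were the rises outside the translation machinery that had a TOP start.

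The elongation factors EEF2, EEF1A1 and EEF1G rose in translational efficiency, with lower mRNA and footprints that were not called changed. EEF2 moves the ribosome along the mRNA by 1 codon. Its Ribo-seq level was 3632, 3110 and 3427 CPM in young and 3727, 3978 and 3525 CPM in ICM, while its mRNA level was 2824, 2921 and 2778 CPM in young and 1426, 1463 and 1402 CPM in ICM. The footprint levels of the groups overlapped and the mRNA levels were separated by a wide gap, and the ratio rose from 1.29, 1.06 and 1.23 to 2.61, 2.72 and 2.52. The log2 change in translational efficiency was 1.14 (SE 0.17, edgeR adjusted p 0.000246).

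EEF1A1 brings aminoacyl-tRNA to the ribosome and was the called gene with the most footprints. Its ratio was 0.479, 0.599 and 0.711 in young and 1.17, 1.17 and 1.32 in ICM (log2 change 1.04, SE 0.19, adjusted p 0.00210). EEF1G, a subunit of the complex that recharges EEF1A1, rose from 0.444, 0.411 and 0.468 to 0.932, 0.918 and 1.09 (log2 change 1.13, SE 0.19, adjusted p 0.000828). RACK1, which sits on the small ribosomal subunit, rose from 0.953, 1.26 and 1.45 to 2.48, 2.71 and 2.59 (log2 change 1.05, SE 0.19, adjusted p 0.00271). In all 3 genes the lowest ICM lysate was clear of the highest young lysate. EEF1A1 and the ribosomal protein genes have near-identical processed copies in the genome and are uncertain as single genes.

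These 4 genes were the calls in a list of 18 TOP mRNAs other than ribosomal proteins, of which 16 had a log2 change above 0. The list's median was 0.49, against 0.06 over all genes tested and with 0.764% of genes called up. Median mRNA and footprint changes over the list were -0.88 and -0.35. Their share of mRNA reads was 3.31% ± 0.149 in young and 1.68% ± 0.0715 in ICM, and their share of footprints 2.68% ± 0.0773 and 2.30% ± 0.106 (mean ± SD, n = 3). When young replicate 1 and ICM replicate 3 were left out, the list held 5 calls up and none down, the added one being VIM, the fibroblast intermediate filament (log2 change 0.48, SE 0.11, adjusted p 0.0225).

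All 80 cytosolic ribosomal protein genes of the list were tested, and 68 had a log2 change above 0. RPS3, RPS18, RPS14, RPS7, RPS4X and RPL4 were called up and none down, 7.50% of the list against the 0.764% of all genes. The median change was 0.32 in translational efficiency, -0.41 in footprints and -0.78 in mRNA. Ribosomal protein mRNAs took 6.10% ± 0.310 of mRNA reads in young and 3.55% ± 0.0604 in ICM, and 4.56% ± 0.352 and 3.59% ± 0.383 of footprints. All 6 calls were lost without young replicate 2, with adjusted p from 0.0771 (RPL4) to 0.612 (RPS14), and all but RPL4 without young replicate 3. With young replicate 1 and ICM replicate 3 left out, 9 members were called up, among them RPS9 and RPL7A.

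RPS3, a small-subunit protein at the mRNA entry channel, had ratios of 0.801, 0.659 and 0.660 in young and 1.57, 1.34 and 1.36 in ICM (log2 change 1.06, SE 0.20, adjusted p 0.00295). RPL4, a protein of the large subunit's exit tunnel, had ratios of 0.564, 0.641 and 0.833 in young and 1.51, 1.17 and 1.70 in ICM (log2 change 1.06, SE 0.20, adjusted p 0.00413). RPS18, at the head of the small subunit, had ratios of 0.774, 0.445 and 0.401 in young and 0.976, 1.01 and 1.03 in ICM (log2 change 1.06, SE 0.23, adjusted p 0.0164). For RPS18, young replicate 1 stood close to the ICM lysates and well above the other young lysates. RPS14, RPS7 and RPS4X rose by 0.98, 0.85 and 0.81 (adjusted p 0.0321, 0.0403 and 0.0321).

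The members differed among themselves by size. Of the 52 ribosomal protein genes with a CDS of at least 400 nucleotides, 49 had a change above 0, all 6 calls were among them and the median was 0.47. Of the 28 shorter genes, 19 had a change above 0, none was called and the median was 0.17. RPL36A, RPL39 and RPL41, all of them short genes of the large subunit, had changes of -1.25 (SE 0.52), -0.87 (SE 0.44) and -0.45 (SE 0.34), none of them called, while the short RPS27 had a change of 1.10 (SE 0.31, adjusted p 0.0869). Across the 80 genes, Spearman's rho between CDS length and change was 0.50, and across the 2938 tested genes with a known length it was 0.03. Genes are not independent replicates, and short genes also had fewer footprints.

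By subunit, 29 of 32 small-subunit genes and 39 of 48 large-subunit genes had a change above 0, with medians of 0.40 and 0.30 and 5 and 1 calls. No test of the difference between subunits was made. Within the list, the 43 genes whose annotated start was a TOP start had a median of 0.25 and the other 21 with a start a median of 0.48. Outside both lists, the median was 0.04 for the 144 tested genes with a TOP start and 0.04 for the others. Over all tested genes, both lists included, it was 0.16 for the 197 with a TOP start and 0.05 for the others.

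**Figure D3:**
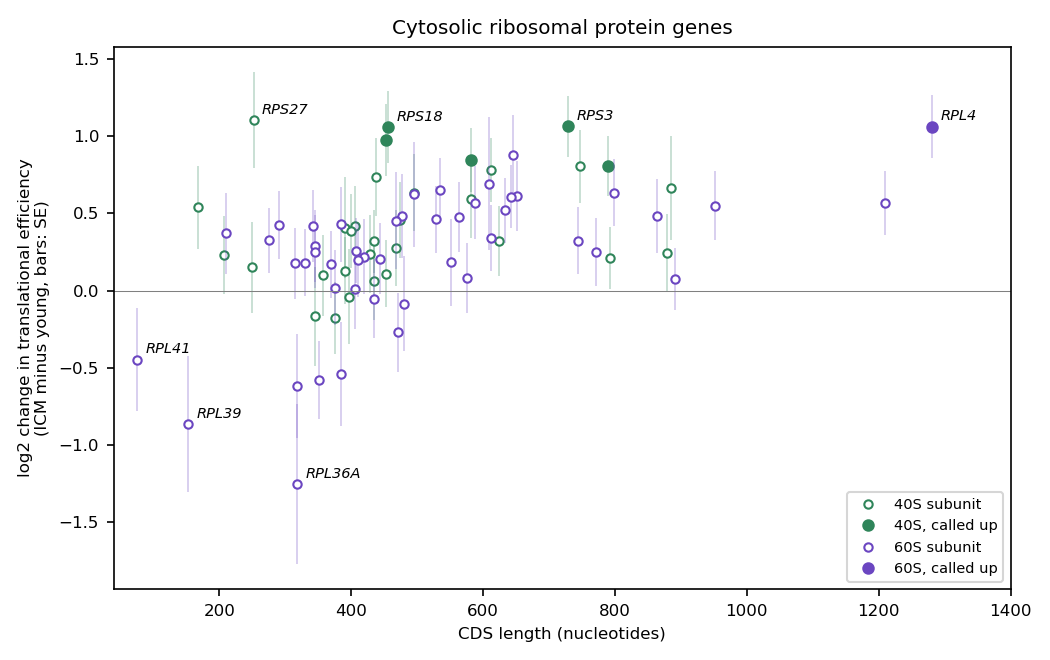
Log2 change in translational efficiency (ICM minus young, bars are SE) against CDS length for 80 cytosolic ribosomal protein genes, with small-subunit genes in green and large-subunit genes in purple, and called genes filled. Above 400 nucleotides nearly all points lie above 0, and the 3 lowest labelled points, RPL36A, RPL39 and RPL41, are shorter genes.

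In the actin cytoskeleton list, ACTG2, ACTA2 and TAGLN rose in translational efficiency, with mRNA log2 changes of -3.51, -3.24 and -3.97. ACTG2 and ACTA2 are the smooth-muscle actins that also mark contractile fibroblasts. For ACTG2, the mRNA level was 812, 735 and 719 CPM in young and 66.8, 68.7 and 63.9 CPM in ICM, and the Ribo-seq level was 1168, 1464 and 1555 CPM in young and 386, 266 and 1168 CPM in ICM. The ICM footprints of replicate 3 reached the young range, while its mRNA was as low as in the other ICM lysates. The ratio was 1.44, 1.99 and 2.16 in young and 5.77, 3.87 and 18.3 in ICM (log2 change 2.00, SE 0.34, adjusted p 0.000995).

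ACTA2 had ratios of 1.08, 1.29 and 1.47 in young and 2.64, 3.57 and 5.17 in ICM (log2 change 1.37, SE 0.26, adjusted p 0.00328). TAGLN, an actin-binding protein of contractile cells, had ratios of 1.21, 1.25 and 1.24 in young and 2.11, 2.18 and 7.02 in ICM (log2 change 1.31, SE 0.30, adjusted p 0.0214). ICM replicate 3 was the highest lysate in all 3 genes. Among the ICM lysates it also had the most footprints of young-type genes, whose part in the result was not tested. Without ICM replicate 3, the change was 1.41 for ACTG2 and still called, and 0.80 for TAGLN (adjusted p 0.0650). Without young replicate 1 and ICM replicate 3 it was 1.26 for ACTG2, 1.04 for ACTA2 and 0.73 for TAGLN (adjusted p 0.00129, 0.0157 and 0.0436). The CDS of ACTG2 and ACTA2 is nearly identical to that of other actins, so that both are uncertain as single genes.

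Of 30 tested actin cytoskeleton genes these 3 were called up and none down, 22 had a change above 0 and the median was 0.25, with medians of -0.89 in mRNA and -0.60 in footprints. Their share of mRNA reads fell from 4.13% ± 0.0287 to 2.17% ± 0.0484, and their share of footprints from 4.93% ± 0.195 to 3.32% ± 0.355. In the fit without young replicate 1 and ICM replicate 3, 6 members were called up, including ACTB (log2 change 0.55, adjusted p 0.00981), ACTG1 (0.55, adjusted p 0.00951) and TAGLN2 (0.81, adjusted p 0.0240), and the myosin light chain MYL12A was called down (-0.75, adjusted p 0.0363). Of 11 tubulins none was called, 8 had a change above 0, and TUBA1A had a change of 0.72 (SE 0.20, adjusted p 0.0869).

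Of the other rises, TIMP3, SERPINH1, FN1 and COL6A3 belong to the matrix and collagen lists, and CLDN11 and CEMIP to no list. CLDN11, a tight-junction claudin, had ratios of 0.777, 0.968 and 0.978 in young and 2.37, 3.64 and 3.04 in ICM (log2 change 1.62, SE 0.24, adjusted p 0.000246). Its highest lysate was ICM replicate 2, and its lowest ICM lysate was replicate 1. Footprints of the young-type genes summed to 215 CPM in ICM replicate 2 and 58.3 CPM in ICM replicate 1. The part of such footprints in the change of CLDN11 was not tested. TIMP3, an inhibitor of matrix proteases, had ratios of 0.831, 0.651 and 0.684 in young and 1.70, 1.07 and 3.18 in ICM (log2 change 1.35, SE 0.30, adjusted p 0.0163). COL6A3, a chain of the microfibrillar collagen VI, had ratios of 1.79, 2.29 and 2.13 in young and 3.51, 4.08 and 6.75 in ICM (log2 change 1.11, SE 0.21, adjusted p 0.00413). Without young replicate 1 and ICM replicate 3 the changes were 1.46 for CLDN11, 1.12 for TIMP3 and 0.71 for COL6A3, all called.

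SERPINH1, the collagen chaperone of the endoplasmic reticulum, had lower mRNA and footprints that were not called changed, although they were lower in all 3 ICM lysates (1543, 1913 and 1763 CPM) than in any young lysate (1916, 2024 and 2335 CPM). Its ratios were 1.40, 1.36 and 1.55 in young and 2.46, 3.10 and 2.70 in ICM (log2 change 0.92, SE 0.18, adjusted p 0.00500). FN1, which encodes fibronectin, had ratios of 1.72, 2.20 and 2.22 in young and 3.08, 3.30 and 4.14 in ICM (log2 change 0.76, SE 0.18, adjusted p 0.0333). CEMIP, a hyaluronan-degrading protein, had ratios of 0.882, 1.36 and 1.38 in young and 2.41, 2.19 and 6.48 in ICM (log2 change 1.32, SE 0.31, adjusted p 0.0252). FN1 and CEMIP lost their calls without ICM replicate 3, with changes of 0.64 (adjusted p 0.0536) and 0.89 (adjusted p 0.113), and also without any 1 young lysate. With both young replicate 1 and ICM replicate 3 left out, FN1 was called (0.47, adjusted p 0.0199) and CEMIP was not (0.72, adjusted p 0.102).

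Of 39 tested secreted matrix proteins other than collagens, 31 had a change above 0, 3 were called up (TIMP3, SERPINH1 and FN1) and none down, and the median was 0.30. Their share of mRNA reads was 4.75% ± 0.153 in young and 3.40% ± 0.0841 in ICM, while their share of footprints was 5.14% ± 0.480 and 4.95% ± 0.187. The list held no call without young replicate 2, where the adjusted p was 0.135 for TIMP3, 0.120 for SERPINH1 and 0.169 for FN1, and none without young replicate 3. It held 5 calls up without young replicate 1 and ICM replicate 3, including SPARC, a collagen-binding matricellular protein (log2 change 0.64, adjusted p 0.00495), and TIMP2. Of 16 collagens COL6A3 was the 1 called, the median was 0.12, and it was -0.21 without ICM replicate 3. COL1A1, the main chain of fibrillar collagen I, had a change of 0.32 (SE 0.24, adjusted p 0.615).

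A pair of amino acid transporters, SLC1A5 and SLC7A5, were called up, and no list of such transporters was examined. SLC1A5, which imports glutamine, was the single rise whose footprints were called up. Its Ribo-seq level was 475, 481 and 575 CPM in young and 906, 1178 and 701 CPM in ICM, with mRNA at 426, 475 and 462 CPM in young and 420, 491 and 428 CPM in ICM. All 3 ICM lysates had more footprints than any young lysate on an mRNA level that overlapped between the groups (log2 change in translational efficiency 0.90, SE 0.21, adjusted p 0.0214). SLC7A5, which imports leucine and other large neutral amino acids, fell in both assays but less in footprints, and its ratio went from 0.443, 0.358 and 0.376 to 0.916, 0.839 and 0.865 (log2 change 1.24, SE 0.30, adjusted p 0.0321). It had 46 footprints in the ICM lysates together, and its change was 1.23 without young replicate 1 and ICM replicate 3. Both transporters lost their calls when any 1 young lysate, ICM replicate 1 or ICM replicate 2 was left out. SLC25A6, the mitochondrial ADP and ATP carrier, and EHD2, a protein of caveolae, also rose, by 1.00 (adjusted p 0.0351) and 0.74 (adjusted p 0.0408). Of 19 alternative fits, SLC25A6 was called in 9 and EHD2 in 8. Both lost their calls without young replicate 2, young replicate 3 or ICM replicate 2.

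Among the falls, TMSB10 was called in all alternatives. It encodes thymosin beta-10, a small protein that binds actin monomers. Its Ribo-seq level was 1971, 2052 and 1976 CPM in young and 529, 241 and 765 CPM in ICM, while its mRNA was 2280, 2150 and 2108 CPM in young and 1675, 1844 and 1652 CPM in ICM. Footprints fell far below the young range while mRNA fell little, and the ratio went from 0.865, 0.954 and 0.937 to 0.316, 0.131 and 0.463 (log2 change -1.70, SE 0.26, adjusted p 0.000326).

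TMSB4X, chosen after its values were seen as the closest relative of TMSB10, had a change of -0.63 (adjusted p 0.399). Without young replicate 1 and ICM replicate 3 it was -1.22 (SE 0.21, adjusted p 0.00174).

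TXN encodes thioredoxin, a target of the oxidative stress factor NRF2. Its mRNA rose from 406, 378 and 372 CPM to 1448, 1510 and 1452 CPM and its footprints from 785, 765 and 722 CPM to 2027, 1546 and 1359 CPM. Both rose in every ICM lysate, footprints by less, and the ratio fell from 1.93, 2.02 and 1.94 to 1.40, 1.02 and 0.936 (log2 change -0.79, SE 0.20, adjusted p 0.0388). It was -0.73 without young replicate 1 and ICM replicate 3. SERF2, a small protein that promotes amyloid formation, and GNG12, a G protein gamma subunit, had rising mRNA and a lower ratio, with changes of -1.30 (SE 0.30, adjusted p 0.0214) and -1.58 (SE 0.34, adjusted p 0.0137). TXN, SERF2 and GNG12 all lost their calls without young replicate 2 or 3.

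RTRAF, a protein of the tRNA ligase complex, changed by -1.87 (SE 0.35, adjusted p 0.00340), but this rested on mRNA reads outside its CDS. The mRNA level of its CDS was 149, 130 and 124 CPM in young and 67.0, 69.9 and 59.8 CPM in ICM, while that of its 3′ UTR was 87.1, 83.2 and 95.8 CPM in young and 308, 299 and 316 CPM in ICM. The CDS and the 3′ UTR of the same gene moved in opposite directions. With CDS reads alone the change was -0.27 (adjusted p 0.837). In the GRCh37 annotation NID2, a basement membrane gene on the opposite strand, overlaps RTRAF by 5886 bases, and its mRNA was 385, 419 and 446 CPM in young and 1612, 1690 and 1691 CPM in ICM. Whether the counting used strand was not given in the sources used here, and the part of NID2 reads in the result was not tested.

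FIP1L1, a factor of mRNA polyadenylation, had 182 CDS footprints in young and 1 in ICM. Relative to all CDS reads the ICM level was 0.0386 times that in young (95% interval 0.000971 to 0.218, exact, counting error only), on an mRNA of 51.3, 43.1 and 45.5 CPM in young and 37.6, 38.5 and 39.0 CPM in ICM (edgeR adjusted p 0.00812). Without young replicate 1 and ICM replicate 3, its log2 change in translational efficiency was -4.33 (SE 1.02, edgeR adjusted p 0.0326). FIP1L1 was not among the genes tested without young replicate 2, young replicate 3 or ICM replicate 1.

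Of the 7 genes that fell, 5 had a CDS under 500 nucleotides (among them TMSB10 132, SERF2 177, GNG12 216 and TXN 315), against 2 of the 23 rises and 10.6% of the tested genes with a known length. The median CDS length was 315 nucleotides for the falls, 1131 for the rises and 1398 for all tested. As a class, the 588 shortest genes, up to 699 nucleotides, had a median change of -0.03, against 0.03 for the 586 longest, and held 6 rises and 5 falls.

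Set against each assay, 22 of the 23 rises had mRNA called down, where 43.5% of all tested genes did, and none had mRNA called up. With mRNA as the denominator of the ratio, picking genes by a rise can itself favour falling mRNA. Footprints of 8 of the rises were called down, of 1 up, and of the other 14 neither way. Of the 7 falls, 5 had mRNA called up and 2 down, and footprints were called down for 4. Sorted by these calls, 16 genes were buffered (mRNA and translational efficiency called in opposite directions, footprints not called), 14 of them with falling mRNA. Changed in translation were 5 genes (footprints and translational efficiency called in 1 direction), among them SLC1A5 up and TMSB10, RTRAF and FIP1L1 down. The place of RTRAF rests on mRNA reads outside its CDS, since with CDS reads alone its change was -0.27 (edgeR adjusted p 0.837). Another 746 genes changed in both assays in 1 direction, and 9 of these were also called in translational efficiency. The calls among buffered genes were EEF2, EEF1G, EEF1A1, RACK1, the 6 ribosomal proteins, SERPINH1, FN1, SLC25A6 and EHD2 with falling mRNA, and SERF2 and GNG12 with rising mRNA. Footprints that were not called were not always unchanged. Those of FN1 and SERPINH1 had log2 changes of -0.39 and -0.29 (edgeR adjusted p 0.101 and 0.235).

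**Figure D4:**
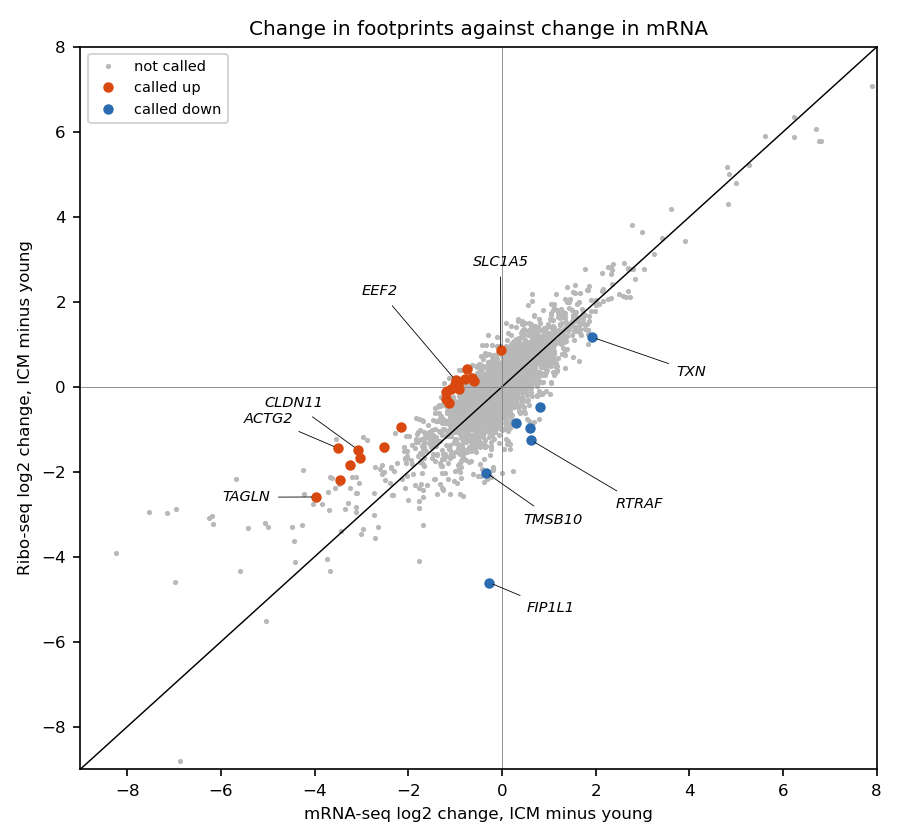
Ribo-seq log2 change against mRNA-seq log2 change (ICM minus young) for the tested genes, with rises in translational efficiency in orange and falls in blue, and the line of equal change in black. The rises lie above the line, all but SLC1A5 at an mRNA change of -0.59 or lower, and the called ribosomal protein and elongation factor genes lie between -0.12 and 0.43 in Ribo-seq change.

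The rise in ratio was larger where mRNA fell more. The 86 tested genes whose mRNA log2 change was under -2 had a median change in translational efficiency of 0.82, the 223 between -2 and -1 one of 0.27, and the 1647 between -0.5 and 0.5 one of 0.03. For the first of these, footprints over mRNA, summed over the genes, were 1.30, 1.34 and 1.31 in young and 1.56, 1.78 and 3.66 in ICM, with replicate 3 far above the others. Without young replicate 1 and ICM replicate 3 the medians of the first 2 classes were 0.42 and 0.16. An mRNA change enters this ratio as its denominator.

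The mitosis and replication genes gave the highest list median, 1.17 over 36 tested genes, but none was called, and without young replicate 1 and ICM replicate 3 the median was 0.25. TOP2A, which untangles chromosomes, had 7 footprints in ICM and ratios of 1.90, 3.06 and 2.95 in young and 1.42, 12.1 and 23.5 in ICM (log2 change 1.29, SE 0.82, adjusted p 0.531). LMNB1, the lamin lost in senescence, had 2 footprints in ICM and a change of 2.22 (SE 1.58, adjusted p 0.592). HMGB1, a target of the inhibitor, changed by -1.72 in both assays, with a change in translational efficiency of -0.02 (SE 0.33, adjusted p 0.988). HMGB2 had 3 footprints in ICM and was not tested. CDKN1A, the cell-cycle inhibitor p21, changed by 2.70 in mRNA, 2.26 in footprints and -0.44 in translational efficiency (SE 0.22, adjusted p 0.408).

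NRF2 target genes rose strongly in both assays. Over 22 tested members, the median change was 2.08 in mRNA, 1.98 in footprints and -0.11 in translational efficiency, with TXN the 1 called, down. Their share of reads rose from 0.454% ± 0.00288 to 2.16% ± 0.0272 in mRNA-seq and from 0.845% ± 0.129 to 3.07% ± 0.556 in Ribo-seq. Of the 22 members, 9 had a change in translational efficiency above 0.

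Ferritin mRNAs carry an iron-responsive element in the 5′ UTR that blocks initiation when iron is low. FTL, the ferritin light chain, rose in mRNA by 2.69 and in footprints by 2.80, and its ratio was 0.155, 0.0387 and 0.0450 in young and 0.0613, 0.0503 and 0.0668 in ICM (log2 change 0.11, SE 0.31, adjusted p 0.929). Young replicate 1, which held footprints of ICM-type genes, was above all ICM lysates, and the other young lysates were below them. The change was 0.37 (adjusted p 0.188) without young replicate 1 and ICM replicate 3. TFRC, the transferrin receptor, whose elements lie in the 3′ UTR and govern mRNA decay, had ratios of 1.82, 1.75 and 1.69 in young and 1.12, 1.40 and 1.02 in ICM (log2 change -0.55, SE 0.20, adjusted p 0.213). None of the 6 tested members of this list was called, and the median was 0.10. FTL has many near-identical processed copies, which makes its own values uncertain.

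Of the stress-response mRNAs with upstream reading frames, ATF4 and EPRS had enough reads. ATF4, the main effector of the integrated stress response, had 7 footprints in ICM and a change of -1.08 (SE 0.67, adjusted p 0.524), and EPRS, an aminoacyl-tRNA synthetase, changed by -0.56 (SE 0.27, adjusted p 0.371). None of 31 initiation factors was called and their median was 0.07, where the helicase EIF4A1 had a change of 0.35 (SE 0.20, adjusted p 0.504) and the scaffold EIF4G1 one of 0.13 (SE 0.25, adjusted p 0.879). EIF5 and EIF4G2 were called down without young replicate 1 and ICM replicate 3.

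None of 72 nuclear-encoded respiratory chain genes was called, 21 had a change above 0, where 55.4% of all tested genes did, and the median was -0.20. ATP5F1B, the catalytic subunit of ATP synthase, had a change of -0.01 (SE 0.19, adjusted p 0.989). Mitochondrial ribosomal proteins had a median of -0.14 over 21 genes and selenoproteins one of -0.43 over 7, with TXNRD1, the thioredoxin reductase, at -0.43 (SE 0.22, adjusted p 0.424). Medians were close to that of all genes for the proteasome (-0.05 over 33), endoplasmic reticulum folding (0.05 over 24), chaperones (0.03 over 25), SR proteins and hnRNPs (0.06 over 31), cholesterol synthesis (0.06 over 21), glycolysis (0.14 over 18), lysosome (0.15 over 26), p53 targets (-0.02 over 8) and replication-independent histones (-0.04 over 7). None of these lists held a call. Cytokines (0.48) and polyamine genes (0.56) had 5 tested members each, none called, and their medians turned negative under some alternatives, down to -0.28 and -0.78.

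**Figure D5:**
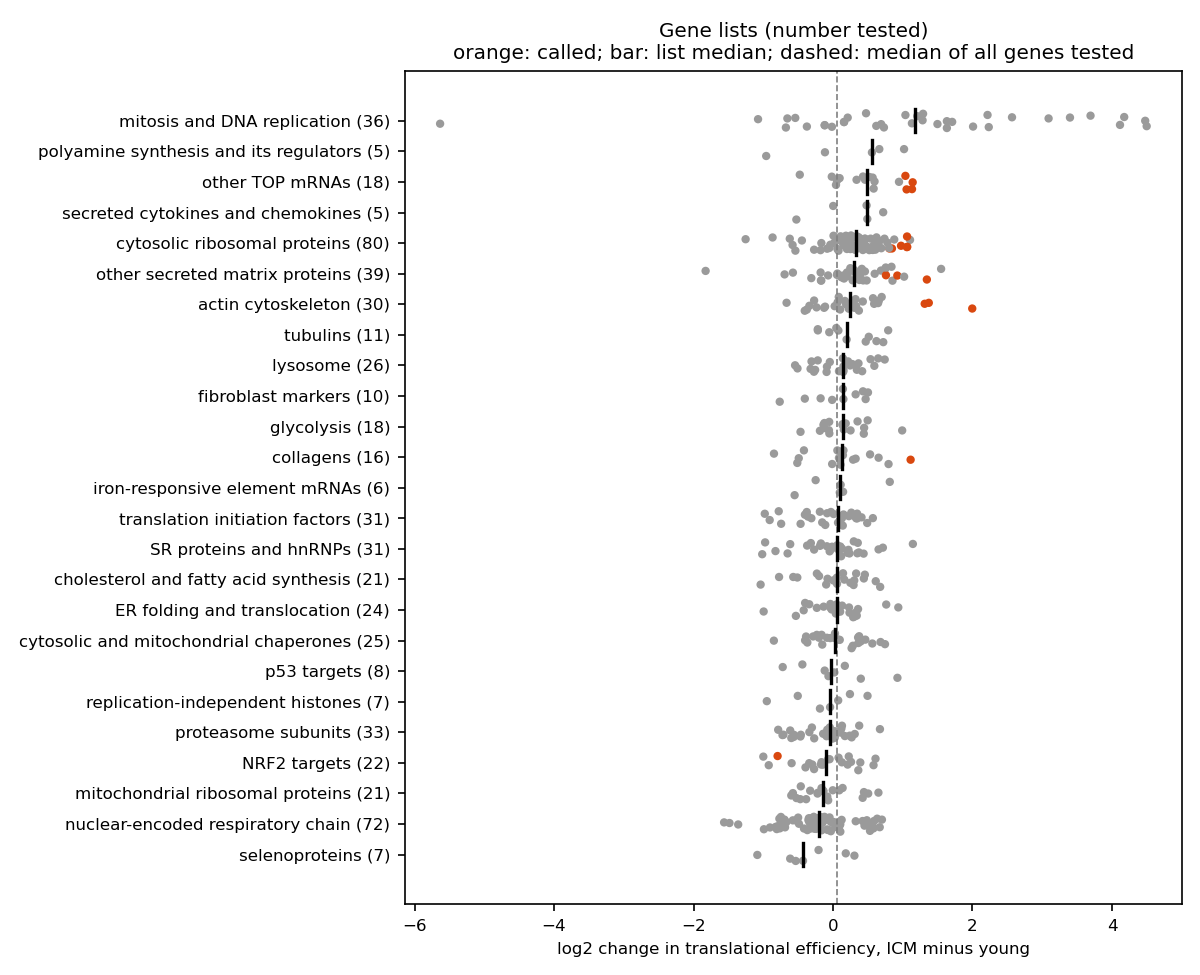
Log2 change in translational efficiency (ICM minus young) of each tested member of the gene lists with at least 3 tested genes, with called genes in orange, the list median as a black bar and the median of all genes, 0.06, as a dashed line. Calls lie in the ribosomal protein, other TOP, matrix, collagen and actin lists to the right and in the NRF2 list to the left.

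Leaving out young replicate 1 and ICM replicate 3 together gave 84 calls among a larger set of tested genes, 47 up and 37 down, and 29 of the 30 genes were among them, the exception being CEMIP. Of the 55 others, SLC2A1, the glucose transporter GLUT1, rose by 0.76 (SE 0.14, adjusted p 0.00388), and PTGES3, the HSP90 co-chaperone p23, fell by 1.39 (SE 0.28, adjusted p 0.00818). These 2 were chosen after their values were seen. With 2 lysates a group the spread within a group rests on single differences.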

How the data were processed

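The authors deposited, for each library, a table of estimated counts of reads per gene symbol by transcript region, not scaled to depth. Some values were not whole, so that reads were divided between features, and how reads with several matches were placed was not given in the sources used here. The submitters' processing notes list STAR 2.6.0c and GRCh37 without saying for which step. Estimated counts were rounded to whole numbers. CDS counts were used for Ribo-seq, and the 5′ UTR, CDS and 3′ UTR counts were summed for mRNA-seq.

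Translational efficiency was tested in edgeR 4.0.16 (R 4.3.3) as the interaction of assay and condition over the 12 libraries, with TMM scaling within each assay, genes past filterByExpr in both assays and the lysate as a block (glmQLFit, glmQLFTest). P-values were two-sided and adjusted by the Benjamini-Hochberg method over all genes tested, HIST symbols included. A gene was called at an adjusted p under 0.05. Each assay was also tested alone. The study used anota2seq and a threshold of 0.15. Ratios by lysate are Ribo-seq CPM over mRNA-seq CPM. Within a lysate the deviations of both libraries correlated with r from -0.103 to 0.159, so that the block rests on the methods' account of divided lysates.

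Named genes were, among genes called, up to 8 with the largest rise and 8 with the largest fall with at least 20 footprints in each condition, the 4 up and 4 down with the most footprints, and in each list up to 4 called members or else the 2 with the most footprints, besides HMGB1, HMGB2, LMNB1 and CDKN1A. The remaining called genes were named because they complete the groups. Results of 1 called gene are not reported here. The comparison, its gene lists and tests were chosen with earlier results of these data known. Intervals and counts of reads cover counting error only. Tested on simulated data for translational efficiency over 3048 genes, the fit recovered 64.0% of the 86 tested genes changed by a factor of 2. It recovered 98.9% of the 90 tested genes changed by a factor of 4, with 9 false calls. The simulation drew each library independently, with no mRNA change, no lysate effect and no footprints of the other condition. The rates may therefore not hold for these data. CDS lengths came from the GENCODE annotation for GRCh37, and transcript starts from RefSeq.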

Additional observations from a re-analysis of the deposited data

How the results depend on the processing

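No gene called in translational efficiency changed sign in any of 19 alternative fits, and RLE scaling, the DESeq2 test (version 1.42.0), CDS reads alone in mRNA-seq, thinned mRNA-seq and TMM over all 12 libraries at once, the last chosen after seeing the data, gave 31, 42, 24, 32 and 28 calls against 30. The count of calls depended on single lysates. Leaving out 1 lysate gave 9 (without young replicate 2) to 65 calls (without ICM replicate 3), with 10 without young replicate 3 and 18 without ICM replicate 2. The same ranges were 269 to 1227 for footprints, 8966 to 9396 for mRNA, and 1 to 31, 4 to 28 and 266 to 1129 for translation, buffering and mRNA abundance, against 778, 9482, 5, 16 and 746. Without young replicate 1 and ICM replicate 3 together there were 84 calls, 1388 in footprints, and 41, 30 and 1255 in the modes. With the old lysates in the fit there were 68 calls, 1206 in footprints, and 22, 34 and 1124 in the modes. At an adjusted p under 0.15 there were 102 and 1180 calls, and 39 genes each in translation and buffering.

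The lysate block lowered the count. With no replicate block (the lysate left out) there were 207 calls, 72 genes in translation and 107 in buffering. Across conditions, samples of 1 replicate number correlated with r from -0.00538 to 0.0225 in Ribo-seq and 0.00147 to 0.243 in mRNA-seq, so that the numbers were not taken to pair them. A replicate block added to the fit gave 28 calls, of which 18 were among the 30, and 416 in footprints, and 3 genes in translation and 407 in mRNA abundance.

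A mean of at least 50 counts gave 57 calls, 11 genes in translation and 36 in buffering, and no filter gave 40 calls (18 up and 22 down, 18 of the 30 among them) with 13 genes in translation. DESeq2 gave 409 calls in footprints, 29 genes in buffering and 403 in mRNA abundance. With Ribo-seq thinned to its shallowest library there were 17 calls, 215 in footprints, and 2, 6 and 210 genes in the modes, and with thinned mRNA-seq 1498 calls in mRNA. Leaving HIST symbols out before the fit gave 22 calls and 10 buffered genes. Except where an alternative itself removes reads or lysates, the cause was not tested. With no filter, the median change of all genes was -0.36 instead of 0.06. A change by a factor of 2 was often not detectable at the Ribo-seq depth of the ICM lysates.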
